A study of Macaca mulatta with 39 samples.

Results

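Cytokines, chemokines and members of the tumour necrosis factor (TNF) superfamily, together with their receptors, were followed across pluripotent and differentiated cells of rhesus macaques. The genes were chosen by symbol alone: numbered interleukins (IL) and their receptors, numbered CC and CXC chemokines (CCL, CXCL) and chemokine receptors (CCR, CXCR), colony stimulating factors and their receptors (CSF), the TNFSF ligands and TNFRSF receptors, and LIF, LIFR, IL6ST and OSMR. This gave 143 genes of the 14132 measured on the array. They comprised 38 interleukins, 36 interleukin receptors (with LIFR, IL6ST and OSMR), 29 chemokines, 11 chemokine receptors, 6 genes of the colony stimulating factor family counted together with LIF, 9 TNF ligands and 14 TNF receptors. The rule reads only symbols, so the receptor antagonist IL36RN was placed with the interleukin receptors and the enzyme IL4I1 with the interleukins. Each gene was represented by its brightest probe set, and 55 genes had more than 1.

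The embryonic stem cells (ESCs) were of 2 lines, C3106 (male) and C3806 (female). Teratoma fibroblasts had grown out of tumours that these lines formed in immune compromised mice, with 5 cultures from line C3106 (TA31 to TE31) and 3 from line C3806 (TA38 to TC38). Skin fibroblasts (M032, M088 and M106p1) came from monkeys that were parents of the lines, and the sources used here do not tie each monkey to a line. No group carried a drug treatment or an engineered allele in the labels. Each source had 3 arrays, called biological triplicates in the labels, and nothing says that they came from separate cultures, so the spread between them may be technical.

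Cytokines are small secreted proteins that carry signals between cells. Interleukin 6, LIF and oncostatin M act through receptors that share the subunit gp130, encoded by IL6ST, and signal through JAK kinases and STAT factors. Chemokines direct the movement of leukocytes, and fibroblasts are a known tissue source of several of them, such as CCL2 and CXCL8. Members of the TNF receptor family signal through TRAF adaptors to NF-kappaB and, for those with a death domain, to apoptosis.

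On 3 arrays the profile went against the label, and they were left out. Over the 143 genes the array labelled C3806c lay nearest to the mean of TC38 (root mean square difference 0.14, against 1.13 to its own line), M106p1f to TD31 (0.10 against 0.94) and TB31c to M106p1 (0.16 against 0.76). Among the 36 arrays kept, the difference to the other arrays of the same source had a median of 0.17. It reached 0.58 between C3806a and C3806b, the only arrays kept for their line, so it marks neither of them. The array C3806a had a gap of 3.89 between the 3′ and 5′ probe sets of actin, against at most 0.78 on the other kept arrays. The mean log2 level of 9 ESC markers was 10.85 and 10.96 in the ESC lines and 5.10 to 5.94 in fibroblast cultures, and the mean of 8 fibroblast markers was 6.99 and 7.09 in the ESC lines and 11.470 to 12.004 in fibroblast cultures. The 10 macrophage and leukocyte markers had means of 5.66 to 6.29 in every source, highest in the ESC lines. LCP1 alone of them was called higher in ESCs, and CD68 alone was called higher in teratoma than in skin fibroblasts. Neural markers averaged from 7.24 (TD31) to 8.45 (TA38) over the sources. Skeletal muscle markers averaged 8.65 in TB31, 8.54 in TD31, 7.06 in TA38 and 6.91 in TB38, and at most 6.31 elsewhere. The samples are bulk cultures, in which fewer cells of a type and less RNA per cell cannot be told apart.

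Most of these genes were dim. In 94 of the 143 (65.7%) the highest source mean was below the median of all values, 7.59 on the log2 scale, against 39.7% of all genes. A gene was called different when its Benjamini-Hochberg adjusted p from limma was under 0.05 over all 14132 genes and the log2 difference was at least 1. The fit used 13 source means, and its spread came from the fibroblast cultures, since each ESC line stood for itself.

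Compared with teratoma fibroblasts, 15 of the 143 genes were lower in ESCs (10.5%), beside 8.18% of all genes, and 1 was higher (0.699%), beside 6.28% of all genes. Compared with skin fibroblasts, 21 were lower (14.7%), beside 9.77% of all genes, and 5 were higher (3.50%), beside 10.2%. The median log2 difference of the set was -0.07 against teratoma fibroblasts, where the median of all genes was 0.02, and -0.08 against skin, where it was 0.03. In the main fit the shares lower in ESCs were above those of all genes, and the shares higher in ESCs were below them. No test was made of the set. The excess lower than in teratoma fibroblasts was absent with no fold limit (23 of 143, beside 2395 of 14132 genes). It was also absent on the mean of a gene's probe sets (10 of 143, beside 1038 of 14132). On the second brightest probe set 5 of 55 were lower, beside 563 of 6375 genes, and against skin 6 of 55, beside 640 of 6375. Among genes with a source mean above the median of all values, 15 of 49 of the set were lower than in teratoma fibroblasts, beside 1128 of 8518 genes. Against skin 19 of these 49 were lower, beside 1345 of 8518. Higher were 1 and 3 of the 49, beside 762 and 1254 of 8518. A gene entered this subset through any source, so a gene bright only in fibroblasts was kept. Both comparisons use the same ESC arrays, so their values are given side by side and not as separate evidence. The largest differences were in IL6, in TNFRSF11B and in CCL2, all of them far lower in ESCs.

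**Figure D1:**
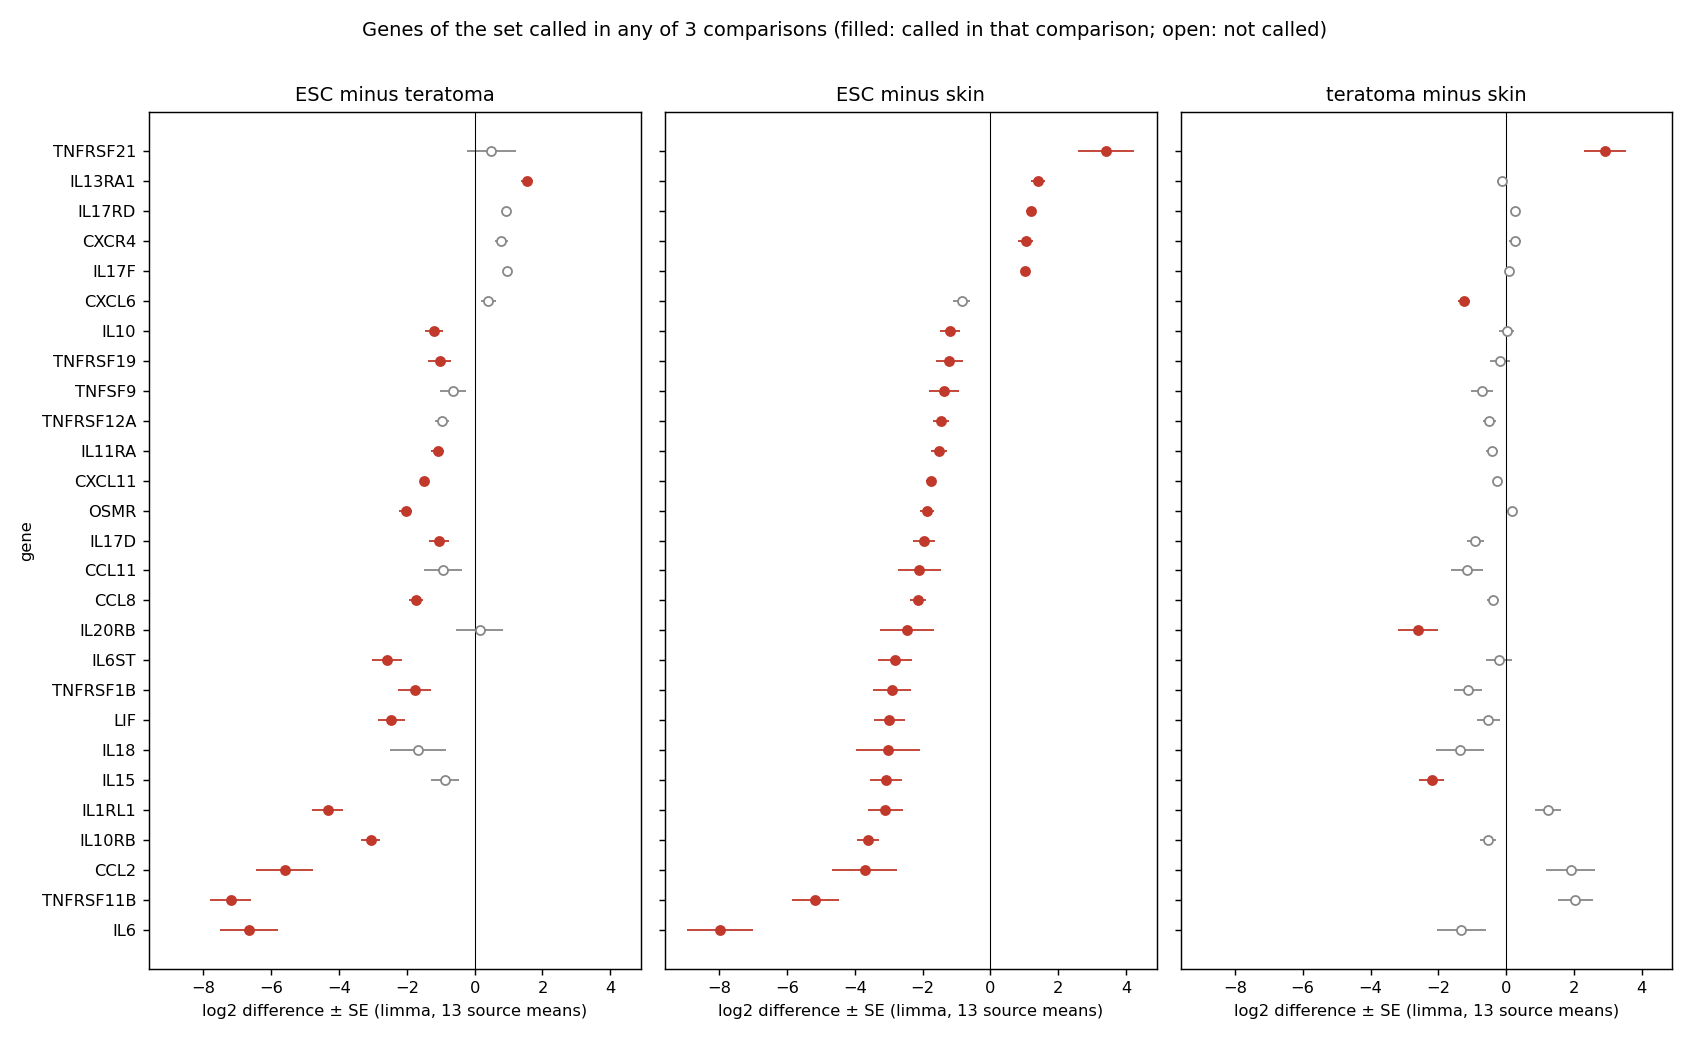
Log2 differences (x axis, ± SE from limma on 13 source means) for the 27 genes of the set called in at least 1 of 3 comparisons (y axis), with ESCs minus teratoma fibroblasts on the left, ESCs minus skin fibroblasts in the middle and teratoma minus skin fibroblasts on the right. Filled red points were called in that comparison and open grey points were not. IL6 lies at -6.65 and -7.97 and TNFRSF11B at -7.19 and -5.16 in the first and middle panels.

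IL6, the founding cytokine of the gp130 family, showed one of the widest gaps. Its log2 level was 4.06, 4.04 and 3.83 on the C3106 arrays and 3.86 and 4.24 on the C3806 arrays. The teratoma cultures ran from 8.98 in TA31 over a median of 10.46 to 12.24 in TA38, and the skin cultures stood at 11.76, 11.64 and 12.56. No ESC array overlapped any fibroblast culture. ESCs were lower than teratoma fibroblasts by 6.65 ± 0.85 (SE; limma adjusted p = 0.000163) and lower than skin by 7.97 ± 0.97 (adjusted p = 0.000116). The second IL6 probe set gave -5.24 and -6.68.

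LIF, a cytokine that sustains mouse ESCs in culture, was also lower in ESCs. Its level was 6.73 to 6.94 on the C3106 arrays, and 6.82 and 6.58 on the C3806 arrays. Teratoma cultures ran from 7.82 (TD31) over 9.22 to 10.01 (TB38), and skin cultures had 9.51, 9.41 and 10.31. The groups did not overlap, and the difference was -2.45 ± 0.39 to teratoma fibroblasts (limma adjusted p = 0.000691) and -2.98 ± 0.45 to skin (adjusted p = 0.000446).

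Of the receptors of this family, IL6ST, OSMR and IL11RA were lower in ESCs, and LIFR, IL6R and IL27RA were not called. IL6ST, the shared gp130 subunit, read 4.15, 4.47 and 4.93 in C3106 and 4.44 and 4.21 in C3806. Teratoma cultures ran from 6.27 (TC38) over 7.08 to 7.85 (TD31), and skin cultures had 7.89, 7.64 and 6.15. The low skin value belongs to M106p1, whose arrays read 7.48 and 4.82. ESCs were lower than teratoma fibroblasts by 2.58 ± 0.44 (limma adjusted p = 0.000969) and lower than skin by 2.80 ± 0.50 (adjusted p = 0.00127).

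OSMR, which pairs with gp130 to bind oncostatin M, was bright in all cells and lower in ESCs. It read 10.13, 9.35 and 10.25 in C3106 and 9.90 and 8.49 in C3806, against 11.30 to 11.85 in teratoma cultures and 11.03, 11.54 and 11.68 in skin. The difference was -2.04 ± 0.19 to teratoma fibroblasts (limma adjusted p = 1.82e-05) and -1.87 ± 0.22 to skin (adjusted p = 8.1e-05). LIFR, the LIF receptor, is the neighbour of OSMR on chromosome 6 in the RefSeq rhesus assembly T2T-MMU8v2.0. Its level was 5.77 to 6.11 in ESCs, 6.03 to 6.28 in teratoma cultures and 6.05 to 6.11 in skin. The LIFR difference was -0.18 ± 0.07 to teratoma fibroblasts (limma adjusted p = 0.0572) and -0.09 ± 0.08 to skin (adjusted p = 0.376), so neither passed the test.

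IL11RA, which binds interleukin 11 beside gp130, read 7.92 to 8.75 in ESCs, 9.11 to 10.13 in teratoma cultures and 9.86 to 9.98 in skin. The difference was -1.09 ± 0.20 (limma adjusted p = 0.00167) and -1.51 ± 0.23 (adjusted p = 0.000476). Against teratoma fibroblasts it fell to -0.99 and short of the limit of 1 without the array C3106c. On its other probe set it was -0.54 and -0.80, short of the limit in both. IL6R, the interleukin 6 receptor, was chosen for mention after its values were seen. It differed by 0.31 ± 0.14 from teratoma fibroblasts (limma adjusted p = 0.106) on the brightest probe set and by 1.07 (adjusted p = 0.0156) on the other, so its call rests on the probe set. IL27RA, which pairs with gp130 to bind interleukin 27, was also named after its values were seen. It differed by 0.19 ± 0.27 from teratoma fibroblasts (limma adjusted p = 0.63) and by 0.44 ± 0.31 from skin (adjusted p = 0.291).

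**Figure D2:**
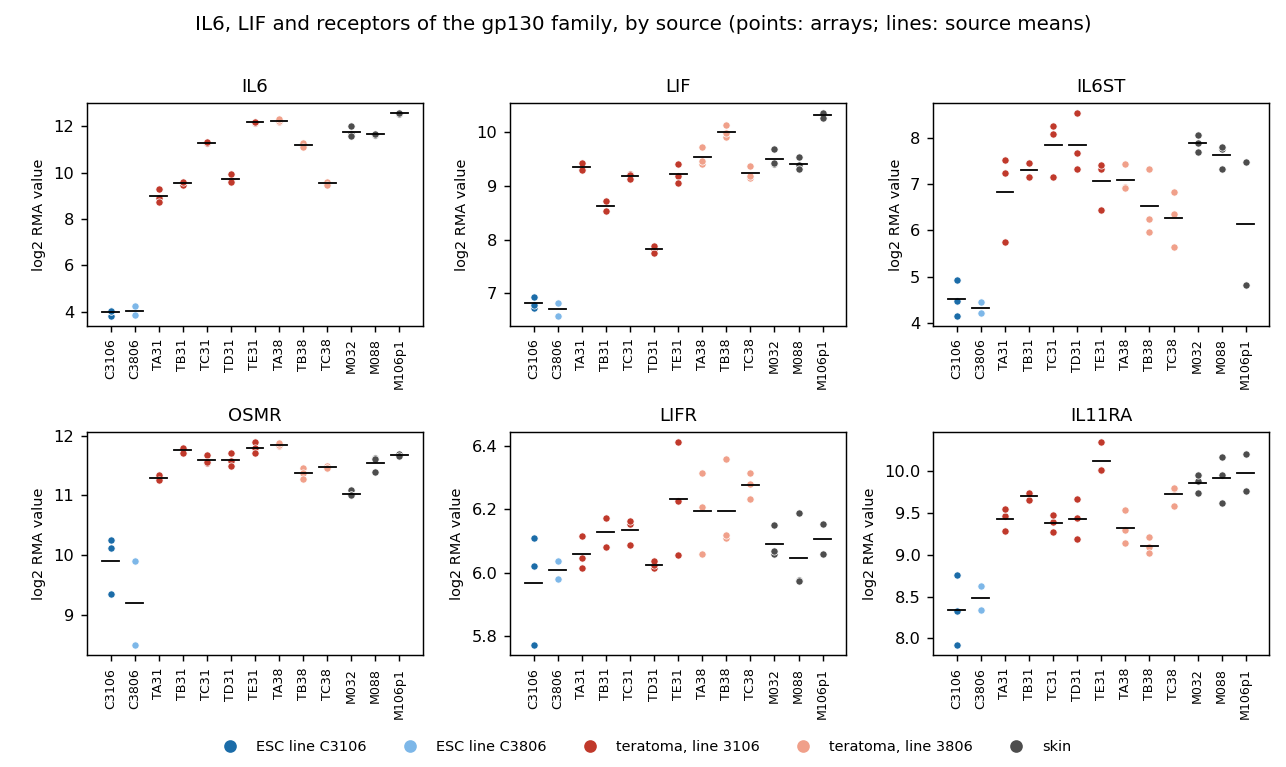
Log2 RMA value (y axis) of IL6, LIF, IL6ST, OSMR, LIFR and IL11RA in each source (x axis), where points are the 36 kept arrays and black lines are source means. IL6, LIF, OSMR, IL6ST and IL11RA sit lower in both ESC lines than in every fibroblast culture mean, while LIFR spans 5.77 to 6.41 over all arrays.

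Other interleukins and receptors were lower in ESCs with 4 more genes against both fibroblast kinds: IL10RB, IL1RL1, IL10 and IL17D. IL10RB, a subunit of receptors for interleukin 10, 22 and the lambda interferons, read 4.58 to 5.50 in ESCs, 7.75 to 9.09 in teratoma cultures and 8.66 to 8.92 in skin. It was lower by 3.07 ± 0.28 than in teratoma fibroblasts (limma adjusted p = 1.86e-05) and by 3.61 ± 0.33 than in skin (adjusted p = 1.67e-05), with no overlap. IL1RL1, the receptor of the alarmin interleukin 33, read 6.58, 6.29 and 7.12 in C3106 and 5.97 and 6.62 in C3806. Teratoma cultures ran from 10.22 (TE31) over 10.78 to 12.19 (TC31), all above the skin cultures at 9.23, 10.05 and 9.46. The difference from ESCs was -4.34 ± 0.44 to teratoma fibroblasts (limma adjusted p = 3.71e-05) and -3.10 ± 0.51 to skin (adjusted p = 0.000764). The second IL1RL1 probe set gave -1.34 and -0.56, and the difference to skin did not pass on it (adjusted p = 0.385). A further probe set read 6.71 in ESCs, 8.14 in teratoma fibroblasts and 7.07 in skin, and another 6.66, 6.63 and 6.55. On the mean of the probe sets the difference to skin was -0.96 (limma adjusted p = 0.0588).

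IL10 and IL17D had smaller differences that depended on the setting. IL10, an anti-inflammatory cytokine, was lower by 1.20 ± 0.26 (limma adjusted p = 0.00426) and 1.19 ± 0.30 (adjusted p = 0.00862) on its brightest probe set, and differed by -0.01 and 0.03 on the second. Without C3106 the IL10 difference to skin was -1.07 (adjusted p = 0.0501), and without M088 it was -0.97. IL17D was lower by 1.04 ± 0.29 than in teratoma fibroblasts (adjusted p = 0.0158) and by 1.95 ± 0.33 than in skin (adjusted p = 0.000926). The IL17D difference to teratoma fibroblasts was -0.80 without C3806 (adjusted p = 0.169), -0.99 without TC31, -0.95 without TD31 and -0.997 without the array C3106c.

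IL15, IL18 and IL20RB were called lower in ESCs than in skin but not than in teratoma fibroblasts. Whether the differences themselves differ was tested as teratoma against skin, where IL15 and IL20RB were called and IL18 was not. IL15, a growth factor of natural killer and memory T cells, read 3.54 to 3.81 in ESCs, 4.10 to 5.60 in teratoma cultures and 7.12, 5.85 and 7.17 in skin. The difference to skin was -3.08 ± 0.48 (limma adjusted p = 0.000545), and to teratoma fibroblasts -0.88 ± 0.42 (adjusted p = 0.129). IL18, an inflammasome product, read 3.81 to 4.27 in ESCs and 6.66 to 7.46 in skin, with a difference of -3.03 ± 0.94 (adjusted p = 0.025). It lost the call when C3106, C3806, M032 or M088 was left out (-3.14, -2.92, -2.86 and -2.97). IL20RB, a subunit of receptors for interleukins 19, 20 and 24, read 5.52 to 6.44 in ESCs and 8.14, 8.97 and 8.31 in skin, a difference of -2.46 ± 0.80 (adjusted p = 0.0303). Its call was lost without C3106 (-2.23), C3806 (-2.68), M088 (-2.21) or M106p1 (-2.54).

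Receptors were also found in the opposite direction. IL13RA1, a subunit of the interleukin 13 receptor, was the only gene of the set called higher against both fibroblast kinds. It read 11.13, 10.94 and 11.28 in C3106 and 10.76 and 11.43 in C3806, against 9.05 to 9.93 in teratoma cultures and 9.68, 9.85 and 9.56 in skin. ESCs were higher by 1.53 ± 0.18 (limma adjusted p = 9.7e-05) and 1.41 ± 0.21 (adjusted p = 0.000381), with no overlap, and by 0.93 and 0.73 on the second probe set. IL17RD, known as a feedback inhibitor of FGF signalling, was higher than in skin by 1.19 ± 0.14 (adjusted p = 0.00011). Its difference to teratoma fibroblasts was 0.93 ± 0.13 (adjusted p = 0.000249), under the limit of 1.

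IL17F was higher by 0.95 ± 0.08 than in teratoma fibroblasts (limma adjusted p = 1.04e-05), under the limit, and by 1.03 ± 0.09 than in skin (adjusted p = 1.69e-05). Its ESC arrays read 7.56, 7.31, 6.54, 7.06 and 7.53, and fibroblast culture means 6.07 to 6.37. The call against skin was lost without C3806 (0.95), M032 (0.97), or the arrays C3806b (0.91), C3106b (0.92) or C3106c (0.98). The second IL17F probe set differed by 2.89 (adjusted p = 7.35e-08) and 2.87 (adjusted p = 2.73e-07), and the remaining one read 7.65 in ESCs, 4.73 in teratoma fibroblasts and 4.48 in skin. The neighbour of IL17F in the assembly, MCM3, a part of the DNA replication helicase, was higher by 1.56 and 2.84, and its part in the IL17F signal was not tested.

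Of the 29 chemokines, 3 were lower in ESCs against teratoma fibroblasts (10.3%, beside 8.18% of all genes) and 4 against skin (13.8%, beside 9.77%). None was higher, beside 6.28% and 10.2% of all genes, and the median differences were -0.07 and -0.14. CCL2, which attracts monocytes, read 4.85, 4.92 and 4.22 in C3106 and 4.42 and 4.87 in C3806. Teratoma cultures ran from 8.80 (TE31) over 9.80 to 11.70 (TA38), and skin cultures had 7.22, 10.08 and 7.78. ESCs were lower by 5.60 ± 0.84 than teratoma fibroblasts (limma adjusted p = 0.000455) and by 3.71 ± 0.96 than skin (adjusted p = 0.0103). The groups did not overlap in either comparison.

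CCL8 and CCL11 lie beside CCL2 in one stretch of chromosome 16. CCL8, also a monocyte attractant, was lower by 1.74 ± 0.21 (limma adjusted p = 9.99e-05) and 2.12 ± 0.24 (adjusted p = 6.42e-05) on its brightest probe set, but by 0.08 and 0.16 on the second. CCL11, an eosinophil attractant, was lower than in skin by 2.09 ± 0.63 (limma adjusted p = 0.0222) and differed from teratoma fibroblasts by -0.94 ± 0.55 (adjusted p = 0.218). The skin values of CCL11 were 7.89, 6.90 and 5.69, and its call was lost without C3106 (-2.12), C3806 (-2.06), M032 (-1.56) or M088 (-2.06). CXCL11, an interferon-induced chemokine, was lower by 1.49 ± 0.12 (adjusted p = 5.55e-06) and 1.76 ± 0.13 (adjusted p = 4.82e-06), while its second probe set gave -1.0 (adjusted p = 0.343) and 0.02 (adjusted p = 0.99).

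The other chemokines were not called between ESCs and fibroblasts. CCL25, the brightest chemokine probe set beside CXCL11, read 11.45 to 12.25 in ESCs, 11.76 to 12.08 in teratoma cultures and 11.92 to 12.13 in skin. CXCL8, the neutrophil attractant interleukin 8, read 4.91 to 5.68 in ESCs and 5.54 to 9.71 in teratoma cultures, and its difference of -1.78 ± 1.25 did not pass (limma adjusted p = 0.303). CCL20 read 6.74 to 9.62 in ESCs, with the top value on C3806a, and did not pass either.

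Among the 11 chemokine receptors only CXCR4, the receptor of CXCL12, was called, and only against skin (1.04 ± 0.23; limma adjusted p = 0.00384). That is 9.09% of them, beside 10.2% of all genes higher in ESCs than in skin. Its ESC arrays read 6.73, 7.57, 6.22 and 6.53, and 10.34 on C3806b. Teratoma cultures ran from 6.50 to 7.38 and skin from 6.55 to 6.68. The higher value rests on C3806b: without it the difference to skin was 0.09 (adjusted p = 0.781), without C3106c 0.86, and without the line C3806 0.25 (adjusted p = 0.578). Without C3806a, which leaves C3806b alone for its line, it was 1.99, and CXCR4 was then also called higher than in teratoma fibroblasts. The brightest receptors of the family, CCR6 (7.08 to 7.36 in ESCs and 7.34 to 7.67 in teratoma cultures) and CCR7 (8.18 to 8.46 and 8.43 to 8.61), did not pass.

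LIF was the only member called among the 6 genes of the colony stimulating factor group (16.7% lower in each comparison, beside 8.18% and 9.77% of all genes). CSF3, the granulocyte factor, read 7.43 to 7.53 in ESCs, 7.58 to 7.73 in teratoma cultures and 7.55 to 7.79 in skin. CSF1, the macrophage factor, is named here after its values were seen. It differed by -0.36 ± 0.07 from teratoma fibroblasts (limma adjusted p = 0.00153) and by -0.51 ± 0.08 from skin (adjusted p = 0.000402), a small difference under the limit.

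Of the 14 TNF receptors, 3 were lower in ESCs than in teratoma fibroblasts (21.4%, beside 8.18% of all genes) and 4 than in skin (28.6%, beside 9.77%). None was higher than in teratoma fibroblasts, beside 6.28% of all genes, and 1 was higher than in skin (7.14%, beside 10.2%). TNFRSF11B, or osteoprotegerin, the decoy receptor of TNFSF11 (RANKL), read 4.22, 4.01 and 4.68 in C3106 and 4.15 and 3.99 in C3806. Teratoma cultures ran from 10.46 (TC38) over 11.61 to 11.91 (TD31), and skin cultures had 8.23, 11.05 and 8.76. No values overlapped with the ESCs, and the difference was -7.19 ± 0.60 to teratoma fibroblasts (limma adjusted p = 9.34e-06) and -5.16 ± 0.69 to skin (adjusted p = 0.000206). The second TNFRSF11B probe set gave -5.64 and -3.01. TNFSF11, chosen for mention after its values were seen, differed by 0.41 ± 0.11 from teratoma fibroblasts and 0.65 ± 0.12 from skin on its brightest probe set (limma adjusted p = 0.0127 and 0.00204). Its other probe set, at 6.57 in ESCs, 3.86 in teratoma fibroblasts and 3.49 in skin, differed by 2.63 and 3.04 (adjusted p = 2.1e-05 and 2.25e-05).

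TNFRSF1B, the receptor TNFR2, read 7.71 to 8.10 in ESCs, 8.81 to 10.37 in teratoma cultures and 9.86, 11.58 and 11.15 in skin. It was lower by 1.77 ± 0.49 (limma adjusted p = 0.0154) and by 2.89 ± 0.56 (adjusted p = 0.00203), and the first of these lost the call without C3106 (-1.74, adjusted p = 0.0713) or C3806 (-1.80, adjusted p = 0.0698). It was lost as well on the mean of the probe sets (-0.84, adjusted p = 0.0605). TNFRSF12A, the receptor of the cytokine TWEAK, was lower than in skin by 1.46 ± 0.24 (limma adjusted p = 0.000844). It read 10.08, 10.40, 11.32 and 10.02, but 12.001 on C3806a, and without C3806b, which leaves C3806a alone for its line, the difference was -0.96.

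TNFRSF19 was called lower by 1.03 ± 0.35 than in teratoma fibroblasts (limma adjusted p = 0.0378) and by 1.22 ± 0.40 than in skin (adjusted p = 0.0306). Its ESC arrays varied from 7.27 on C3106d to 10.35 on C3806a, overlapping teratoma cultures at 9.51 to 10.60 and skin at 9.57 to 10.89. Without the line C3106 the differences were -0.29 (adjusted p = 0.691) and -0.48 (adjusted p = 0.513). The teratoma call was also lost without TA31 (-1.03), TA38 (-1.07), TB31 (-0.95), TB38 (-0.97), TC38 (-1.05) or TD31 (-1.02), and without the arrays C3806b (-0.65), C3106d (-0.82) or C3106b (-0.998). The skin call was lost without M106p1 (-0.81), C3806b (-0.84) or C3106d (-1.01). The second TNFRSF19 probe set gave -0.31 and -0.27, and the mean of its probe sets -0.58 and -0.64, all short of the limit. The remaining probe set read 5.72 in ESCs, 6.11 in teratoma fibroblasts and 6.08 in skin.

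TNFRSF21, a death receptor also called DR6, was higher in ESCs than in skin by 3.41 ± 0.83 (limma adjusted p = 0.00754). It read 9.01, 9.08 and 10.28 in C3106 and 9.31 and 9.57 in C3806, against 6.39, 6.51 and 5.21 in skin. Teratoma cultures spread from 7.59 (TE31) over 8.84 to 10.47 (TC31), around the ESC values, and the difference from ESCs was 0.49 ± 0.73 (adjusted p = 0.645).

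Of the 9 TNF ligands none was called against teratoma fibroblasts, beside 8.18% of all genes lower and 6.28% higher. TNFSF9 alone was lower than in skin (11.1%, beside 9.77%), and none was higher, beside 10.2%. TNFSF9, the ligand of the costimulatory receptor 4-1BB, read 5.29 to 5.78 in ESCs and 7.54, 6.68 and 6.28 in skin, a difference of -1.37 ± 0.45 (limma adjusted p = 0.0309). It lost the call without C3106 (-1.46), C3806 (-1.27) or M032 (-1.01). TNFSF18, the ligand of GITR, was bright on the probe set used, at 11.89 to 12.28 in ESCs, 11.44 to 11.67 in teratoma cultures and 11.71 to 11.93 in skin. Its difference of 0.54 ± 0.09 from teratoma fibroblasts passed on p (limma adjusted p = 0.000926) but not on size. The second TNFSF18 probe set differed by 0.46. The remaining one was dim and lowest in ESCs, at 4.11, against 5.60 in teratoma fibroblasts and 4.28 in skin. TNFSF10, the apoptosis ligand TRAIL, differed by -0.24 ± 0.17 (limma adjusted p = 0.303).

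**Figure D3:**
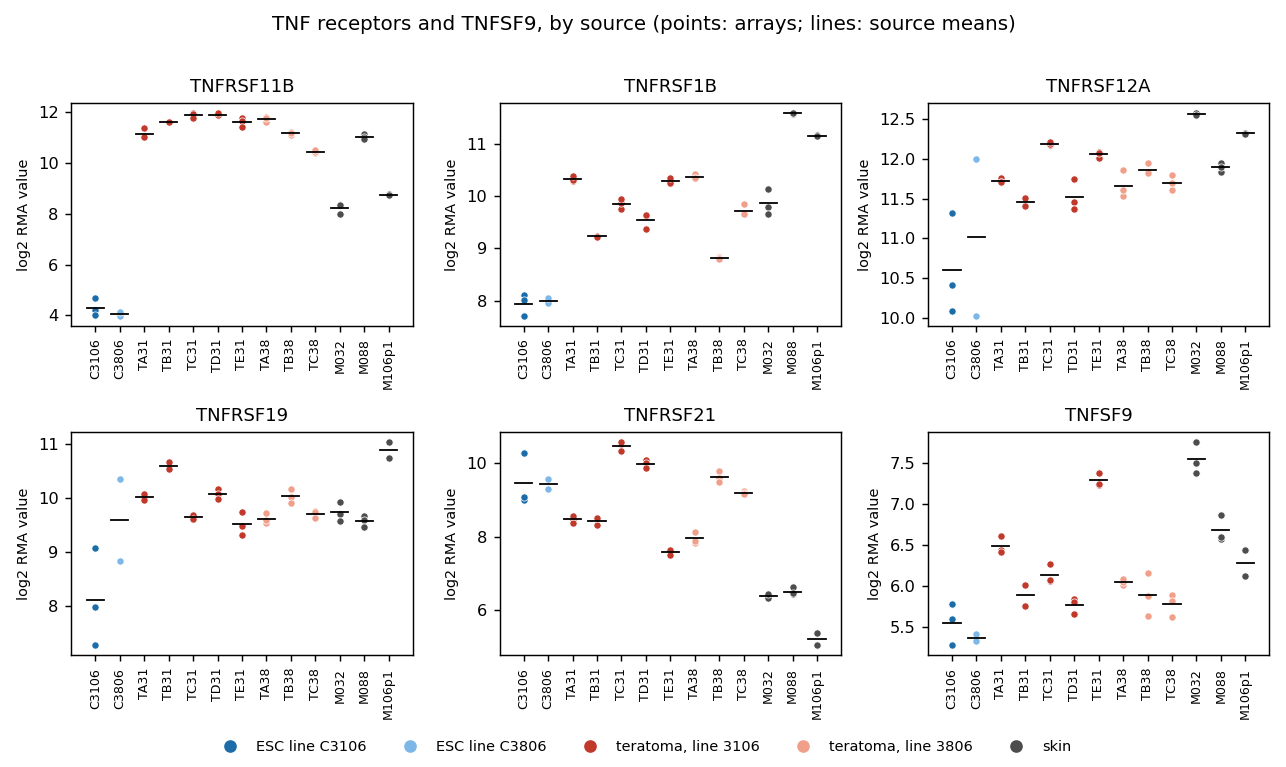
Log2 RMA value (y axis) of 5 TNF receptors and TNFSF9 in each source (x axis), where points are the 36 kept arrays and black lines are source means. TNFRSF11B lies at 3.99 to 4.68 on the ESC arrays, TNFRSF21 is lowest in skin cultures, and TNFRSF19 overlaps between ESCs and fibroblasts.

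The choice of probe set bore on these calls. Of the 11 called genes with another probe set in the teratoma comparison, 5 were called the same way on it, and 6 kept their sign without being called. In the skin comparison, 6 of 13 were called the same way, 5 kept the sign and 2 had the opposite sign (CXCL11 and IL10). Genes called only on the second probe set numbered 3 against teratoma fibroblasts (IL17F, IL6R and TNFSF11) and 4 against skin (CXCL12, IL17RB, TNFRSF10A and TNFSF11). IL6, TNFRSF11B, OSMR and TNFRSF1B were called lower on the brightest and on the second brightest probe set in both comparisons. OSMR has a further probe set, which read 6.45 in ESCs, 6.22 in teratoma fibroblasts and 6.08 in skin. The further TNFRSF1B probe set read 6.46, 5.36 and 6.46, and was thus not lower in ESCs.

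**Figure D4:**
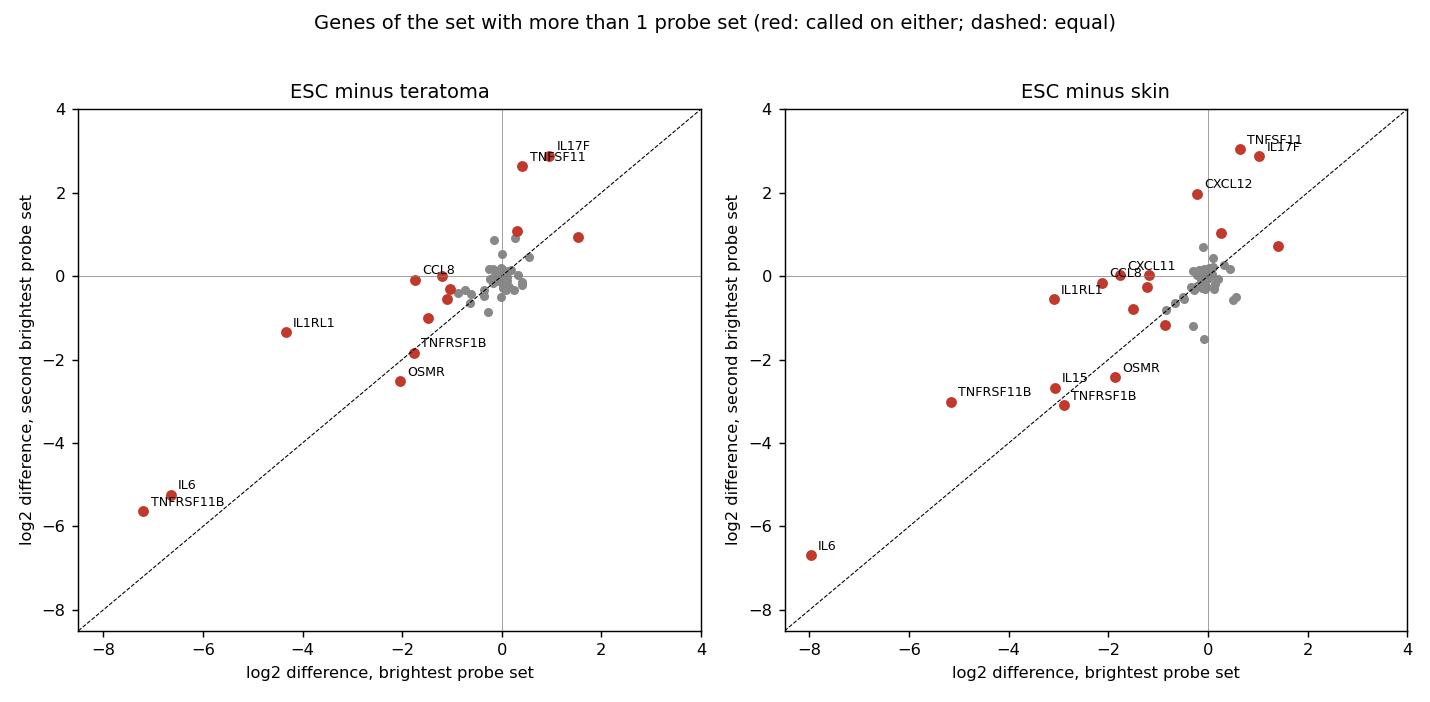
Log2 difference on the brightest probe set (x axis) against the second brightest (y axis) for the 55 genes with more than 1 probe set, for ESCs minus teratoma fibroblasts (left) and ESCs minus skin (right). Red points were called on either probe set and the dashed line marks equal values. IL6 and TNFRSF11B are far below 0 on both axes, whereas CCL8 is near 0 on the second probe set and TNFSF11 and IL17F are near 3.

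Genes that carry these signals inside the cell were read from fixed lists. Of 20 JAK-STAT and SOCS genes measured, 2 were lower in ESCs than in teratoma fibroblasts (10%, beside 8.18% of all genes) and 3 than in skin (15%, beside 9.77%). None was higher, beside 6.28% and 10.2% of all genes, with median differences of -0.05 and -0.06. JAK2, a kinase bound to cytokine receptors, was lower by 3.49 ± 0.23 (limma adjusted p = 1.39e-06) and 2.81 ± 0.26 (adjusted p = 1.84e-05). STAT6, the factor of interleukin 4 and 13 signalling, was lower by 1.54 ± 0.37 and 2.64 ± 0.43, and SOCS2, a feedback inhibitor, by 2.52 ± 0.89 than in skin (adjusted p = 0.0432).

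Of 25 genes of NF-kappaB and the TNF receptor adaptors, 3 were lower (12%, beside 8.18% of all genes) and 1 higher (4%, beside 6.28%) against teratoma fibroblasts. Against skin, 4 were lower (16%, beside 9.77%) and 2 higher (8%, beside 10.2%). NFKB1, which encodes the p50 subunit, was lower by 3.19 ± 0.23 (limma adjusted p = 3.24e-06) and 3.49 ± 0.27 (adjusted p = 4.92e-06). TRAF5 was lower by 1.46 ± 0.21 and 1.44 ± 0.24, while TRAF4 was higher by 1.10 ± 0.20 and 1.56 ± 0.23. NFKBIZ was lower than in teratoma fibroblasts by 1.99 ± 0.46 (adjusted p = 0.00642), and IKBKB and TNIP1 were called lower than in skin. TAB1, a partner of the kinase TAK1, was higher than in skin in both ESCs (2.00 ± 0.24) and teratoma fibroblasts (1.58 ± 0.18; limma adjusted p = 0.00302).

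Of 14 interleukin 1 and Toll receptor adaptor genes, 2 were lower in each comparison (14.3%, beside 8.18% and 9.77% of all genes) and none was higher, beside 6.28% and 10.2%. PELI2, a ubiquitin ligase of this pathway, was lower by 2.66 ± 0.17 and 3.01 ± 0.20. TLR4, the lipopolysaccharide receptor, was lower than in teratoma fibroblasts by 1.95 ± 0.55 (limma adjusted p = 0.0168), and TICAM1 than in skin by 1.11 ± 0.12. Of 44 related genes outside the symbol rule, 5 were lower (11.4%, beside 8.18% of all genes) and 1 higher (2.27%, beside 6.28%) than in teratoma fibroblasts. Against skin, 4 were lower (9.09%, beside 9.77%) and 1 higher (2.27%, beside 10.2%). Lower genes included the death receptor FAS (-2.33 ± 0.39 and -3.38 ± 0.45), the lymphotoxin receptor LTBR (-1.24 ± 0.17 and -1.76 ± 0.20) and the pattern recognition molecule PTX3 (-3.98 ± 0.74 and -4.71 ± 0.85). The chemokine scavenger ACKR3 was lower than in teratoma fibroblasts by 1.91 ± 0.53, and CLCF1, a gp130 cytokine, differed from skin by -2.22 ± 0.43. In the other direction, KIT was called higher than in skin in both ESCs (3.13) and teratoma fibroblasts (2.69). It was the only gene of this list called between the fibroblast kinds (2.27%, beside 0.658% of all genes higher and 0.545% lower).

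Between the 2 kinds of fibroblast few genes of the set differed. Teratoma fibroblasts were higher than skin for 1 gene (0.699%), beside 0.658% of all genes, and lower for 3 (2.10%), beside 0.545%. TNFRSF21 was higher by 2.92 ± 0.62 (limma adjusted p = 0.037), with no overlap between cultures. IL15 was lower by 2.20 ± 0.36 (adjusted p = 0.0148), CXCL6 by 1.25 ± 0.19 (adjusted p = 0.0122) and IL20RB by 2.60 ± 0.60 (adjusted p = 0.0441). CXCL6, a neutrophil attractant, ran from 6.92 to 8.06 in teratoma cultures and stood at 8.46, 8.87 and 8.55 in skin. It lost the call on its second probe set (-0.68, limma adjusted p = 0.0719) and on the mean of its probe sets (-0.96, under the limit). With all 39 arrays it was lost as well (-1.015, limma adjusted p = 0.0573). IL20RB in the culture TD31 (8.29) overlapped the skin values, while the other teratoma cultures lay at 5.03 to 7.08.

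Several of these calls depended on single sources. TNFRSF21 lost the call without M032 (3.10), M088 (3.15), M106p1 (2.51), TA31 (2.98), TB31 (2.99), TB38 (2.74), TC38 (2.85) or TD31 (2.79), with adjusted p from 0.0507 to 0.128. IL20RB lost it without M032 (-2.77), M088 (-2.35), M106p1 (-2.68), TA31 (-2.49), TA38 (-2.56), TB31 (-2.55), TB38 (-2.56), TC31 (-2.69) or TC38 (-2.68). IL15 lost it without M032 (-1.998) or M106p1 (-1.976). TNFRSF11B was higher in teratoma cultures by 2.03 ± 0.52 without passing (limma adjusted p = 0.0569), and its skin values of 8.23, 11.05 and 8.76 spread widely. IL1RL1 was higher in every teratoma culture than in every skin culture, by 1.24 ± 0.38 (adjusted p = 0.0911).

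Sister cultures were compared in a separate fit. These tests compared arrays of a source with 23 residual degrees of freedom and measured only the spread between arrays, so they show that cultures differ and not why. Among the 5 teratoma cultures of line C3106, 20 genes of the set differed (14.0%), beside 11.6% of all genes. Among the 3 cultures of line C3806, 13 differed (9.09%), beside 5.09%, and among the 3 skin cultures, 17 did (11.9%), beside 8.77%. In all, 23 genes of the set differed in at least 1 of the teratoma lines, a union that was not counted over all genes.

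IL6 and CXCL8 varied by culture. IL6 ran from 8.98 in TA31 to 12.16 in TE31 among line C3106 cultures (limma adjusted p = 9.26e-19) and from 9.53 in TC38 to 12.24 in TA38 among line C3806 cultures (adjusted p = 6.05e-16). CXCL8 was 8.33 in TE31 and 9.70 in TA38, 10.62 in the skin culture M106p1, and 5.54 to 7.58 in the other teratoma and skin cultures. IL18 also had its 2 top teratoma values in TE31 (7.88) and TA38 (7.17), with 4.40 to 6.13 in the rest.

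TA38 stood out from its sister cultures for several genes. CCL20, which attracts cells bearing CCR6, was 9.44 in TA38 against 6.38 and 5.88 in TB38 and TC38 (limma adjusted p = 1.38e-08). IL1A, an alarmin, was 6.25 against 4.82 and 4.81 (adjusted p = 9.38e-11), and TNFSF13B, the B cell factor BAFF, was 6.73 against 4.89 and 4.78 (adjusted p = 3.04e-14). Both of these were named after their values were seen.

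TC31 and TD31 shared high values of another group. IL33 was 7.55 in TC31 and 6.60 in TD31, with 3.41 to 5.18 in the other line C3106 cultures (limma adjusted p = 1.25e-15). TNFSF15, a ligand of the death receptor DR3, was 7.39 and 7.96, with 4.50 to 5.98 in the others (adjusted p = 1.08e-12). TNFRSF21 was 10.47 and 9.98, against 7.59 to 8.47, and IL20RB was 7.08 and 8.29, against 5.03 to 5.94. IL1RL1, the receptor for IL33, was 12.19 and 11.32, against 10.22 to 10.96 (adjusted p = 1.13e-10). TD31 also had the lowest LIF (7.82). Muscle markers averaged 8.54 in TD31 but 6.13 in TC31 and 8.65 in TB31, and the part of muscle cells in these values was not tested. CCL3 was highest in TB31 (8.18, against 6.60 to 6.93 in its sister cultures, chosen after its values were seen).

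By range of culture means, skin cultures differed most in CXCL8 (6.80, 5.89 and 10.62; limma adjusted p = 9.63e-13), CCL2 (7.22, 10.08 and 7.78; adjusted p = 1.3e-15) and TNFRSF11B (8.23, 11.05 and 8.76; adjusted p = 1.07e-16). IL33 was 3.72, 6.36 and 3.64 in M032, M088 and M106p1. M088 was thus the high culture for CCL2, TNFRSF11B and IL33, and M106p1 for CXCL8.

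**Figure D5:**
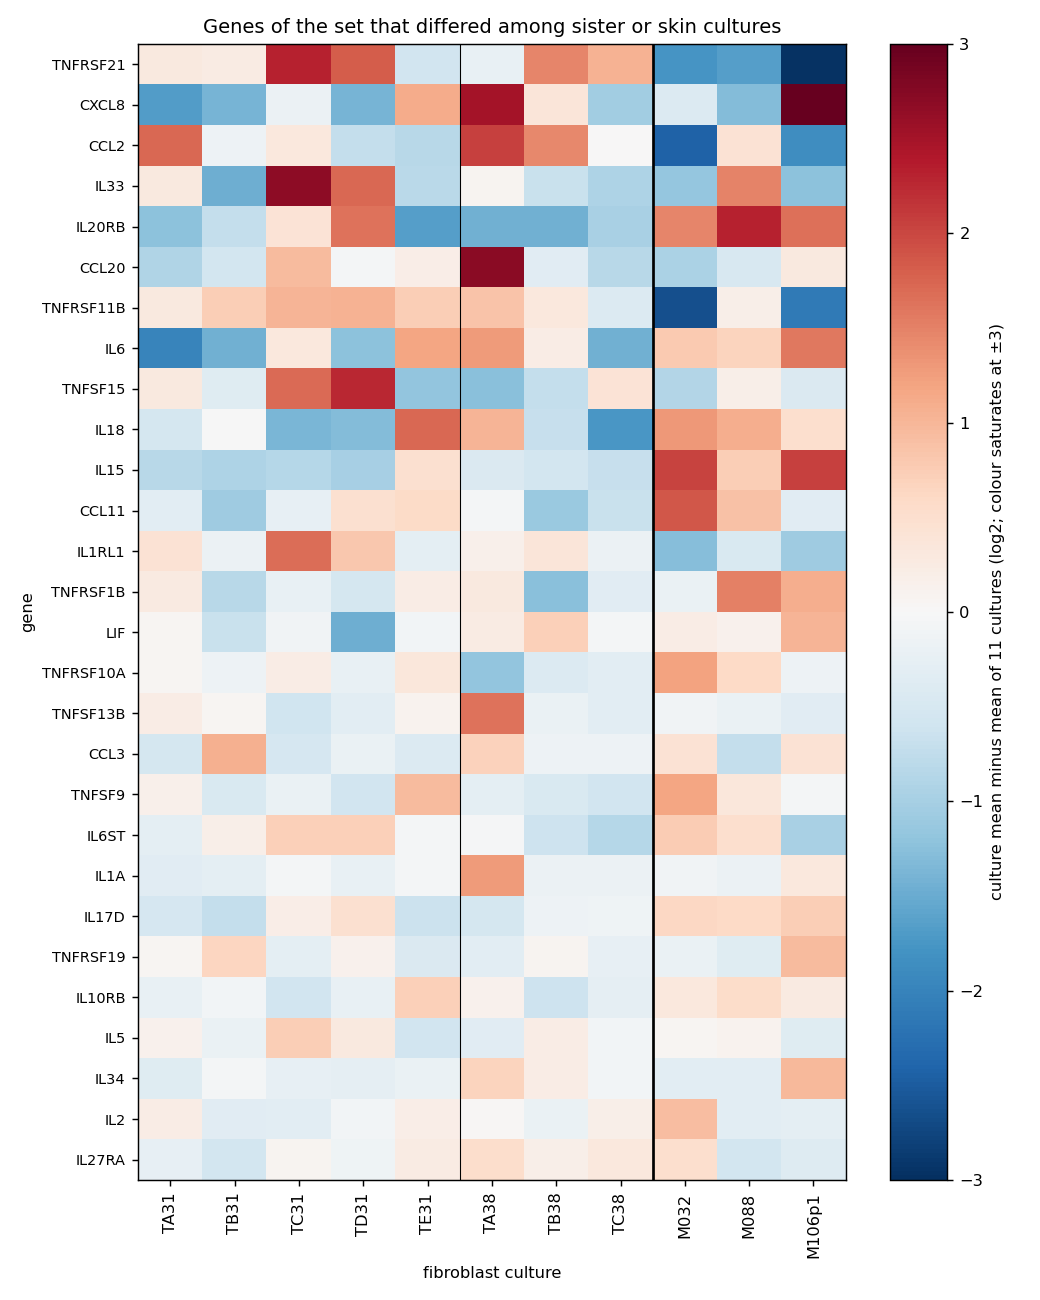
Deviation of each culture mean from the mean of 11 fibroblast cultures (colour, log2 units, saturating at ±3) for the 28 genes of the set (y axis) that differed among sister or skin cultures, with 8 teratoma cultures and 3 skin cultures on the x axis. Black lines part the cultures of line C3106, line C3806 and skin. TC31 and TD31 are red for IL33, TNFSF15, TNFRSF21 and IL1RL1, and TA38 and M106p1 are red for CXCL8.

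No gene of the set was called between the teratoma fibroblasts of line C3806 and line C3106, where 0.0354% of all genes were higher and 0.00708% lower in limma. At an unadjusted p under 0.05 there were 3: IL20RA (-0.67 ± 0.19), CXCL10 (0.64 ± 0.19) and TNFRSF10A (-0.69 ± 0.29), with adjusted p of 0.718 to 1. The difference between ESCs and teratoma fibroblasts did not differ between the lines by call for any gene of the set, beside 0.0212% of all genes with a positive and 0.0354% with a negative interaction. There were 4 at an unadjusted p under 0.05, led in limma by CXCR4 (1.47 ± 0.39, adjusted p = 0.42) and TNFRSF19 (1.67 ± 0.69, adjusted p = 0.863). In both tests the count is below the share of 0.05 that this unadjusted level passes by chance on average. All genes were not counted at this level. A p that misses the threshold does not show that the lines act alike.

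Between the ESC lines 2 genes were called on their arrays (1.40%), beside 1.08% of all genes: CXCR4, higher in C3806 by 1.59 (limma adjusted p = 0.0487), and TNFRSF19, higher in C3806 by 1.49 (adjusted p = 0.00322). The arrays within line C3806 read 6.53 and 10.34 for CXCR4 and 10.35 and 8.83 for TNFRSF19. The count rested on single arrays: without C3806a 4 genes were called, and of the other 35 arrays left out in turn, 33 changed it by over 1.5 times, to 4 without C3806b and to 1 for the rest of the 33.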

How the data were processed

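The authors deposited a table of log2 signals for every probe set on every array. GCOS and RMA are named for it, without versions, per the submitters' processing notes. RMA corrects background, equalises the arrays' distributions and summarises the probes of a set, so small differences between dim probe sets are compressed. Per the labels' protocols, total RNA was primed at the poly(A) tail and amplified with a biotin label. Depth does not apply to arrays, and the number of sources limits precision.

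Genes were named from the platform annotation, which gives 1 gene for 24969 of 52865 probe sets, several for 361 and none for 27535. All 143 genes of the set matched RefSeq under the same symbol. Each gene was read from its brightest probe set, by mean over the 39 arrays. The arrays C3806c, M106p1f and TB31c were left out. On the 36 others, limma 3.58.1 (R 4.3.3) was run on source means in 5 classes (8 residual degrees of freedom), with Benjamini-Hochberg adjustment over 14132 genes and a limit of 1 on the log2 difference. Tests were two-sided. Sister cultures and the ESC lines were compared on arrays. The fits were also run on simulated data that gave the ESC lines the spread of the fibroblast cultures. That run cannot show how the fits behave where the ESC spread differs. Figures were drawn with matplotlib.

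The gene set and the lists were chosen with earlier results of these data known. The genes named were those called in a main comparison, LIF, LIFR, IL6ST and OSMR, the 2 brightest of each family, the 8 with the widest range among teratoma cultures, and up to 4 called genes of each list. Most exceptions are marked in the text. IKBKB, TNIP1, IL20RA, CXCL10, TNFRSF10A, CXCL12, IL17RB and the markers LCP1 and CD68 were named from their results without a mark there. MCM3 was named as the neighbour of IL17F. The alternatives varied the arrays, sources, probe sets, scaling, dim genes, classes, blocks, variance model and fold limit.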

Additional observations from a re-analysis of the deposited data

Results flagged for a closer look

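A value was looked at again where, among the 8 teratoma culture means or the 5 ESC arrays, the highest or lowest stood far from its nearest neighbour relative to the whole range (Dixon's criterion at the 95% level). In 76 such groups of the 38 named genes, 4 were marked, and chance marks about 1 group in 20. CCL8 read 8.38 on the ESC array C3106d, where the next array read 7.29. IL15 was 5.60 in TE31, where the next teratoma culture had 4.66, and TNFSF9 was 7.28 in TE31, where the next had 6.49. CCR7 was 8.61 in TE31, a gap of small size to the next culture at 8.50.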

How the results depend on the processing

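Of 46 calls of named genes, 20 kept their direction and stayed past the threshold under every alternative run other than leave-one-array-out, among them IL6, LIF, IL6ST, OSMR, IL10RB, CCL2 and TNFRSF11B in both ESC comparisons, and 28 did so when the choice of probe set was set aside. Only 26 of the 46 calls had a second probe set, and on it 12 stayed the same, 12 were weaker and 2 reversed. LIF, IL6ST, IL10RB and CCL2 have 1 probe set each, so the choice of probe set could not change their calls. The 2 that reversed did so on the second probe set: CXCL11 (0.018) and IL10 (0.025), against skin.

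Genes lower in ESCs than in teratoma fibroblasts (15) became 23 with no fold limit, beside 2395 of 14132 genes. On the second probe set (55 genes tested) 5 were lower, beside 563 of 6375 genes. Of the same 55, 10 were lower on the brightest. Genes higher (1) became 3 on the second probe set, on the mean of probe sets, with median-centred arrays and without C3806a, 2 with quantile normalization and with the replicate block, and 11 with no fold limit. All genes higher than in teratoma fibroblasts then numbered 397 of 6375 on the second probe set. Of 14132 genes they numbered 807 on the mean of probe sets, 1057 when centred and 885 without C3806a. They numbered 998 with quantile normalization, 942 with the replicate block and 3094 with no fold limit. Genes of the set lower than in skin (21) became 6 on the second probe set, beside 640 of 6375 genes. Of the same 55, 11 were lower on the brightest. Genes of the set higher than in skin (5) became 3 with all 39 arrays, among bright genes and with the replicate block. With no fold limit they became 11. All genes higher numbered 1061 of 14132, 1254 of 8518, 1402 of 14132 and 3484 of 14132 in these settings. Teratoma against skin, genes higher (1) became 0 with all 39 arrays and on the second probe set, 2 among bright genes and with 3 classes, and 4 with source as a random block or with the replicate block. All genes higher there numbered 33 of 14132 with all 39 arrays, 20 of 6375 on the second probe set and 121 of 8518 among bright genes. Of 14132 they numbered 142 with 3 classes, 343 with the random block and 309 with the replicate block. Genes of the set lower (3) became 0 (all 39 arrays), 1 (second probe set), 7 (random block) and 6 (replicate block). All genes lower numbered 19 of 14132, 21 of 6375, 246 of 14132 and 258 of 14132 in these settings. On the brightest probe set these 55 genes gave 0 higher and 2 lower between the fibroblast kinds. Genes that differed among skin cultures (17) became 7 on the second probe set and 50 with no fold limit, and among teratoma cultures (23) 12 and 66. ESC line calls (2) became 1 with all 39 arrays, the mean of probe sets, centring or quantile normalization, 0 on the second probe set, 9 with no fold limit and 4 without C3806a. The interaction gave 1 call without C3806a. For the tests on arrays and the interaction, all genes were counted at most in the main fit. The cause was not tested, apart from the fewer genes with a second probe set.

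Leaving out 1 source or array gave 13 to 16 lower and 1 to 3 higher genes against teratoma fibroblasts, 16 to 22 lower and 3 to 6 higher against skin, and 1 to 3 lower and 0 to 2 higher between fibroblast kinds. The 3 higher against skin came without C3806, C3806b or C3106c, the 3 higher against teratoma fibroblasts without C3106 or C3806a, and the 1 lower between fibroblast kinds without M032 or M106p1. It gave 16 to 18 genes among skin cultures, 22 to 24 among teratoma cultures, 1 to 4 between ESC lines, and 0 to 1 for the interaction. Sample letters did not pair the arrays: deviations of same-letter arrays of different sources had a median correlation of 0.05 over 178 pairs, against -0.02 for other pairs. Centring moved the median of all genes between ESCs and teratoma fibroblasts to 0.10, and the share of called genes that were higher to 49.5% from 43.4%. Signal over background limits the 94 dim genes.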

Other observations

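Values of the 3 arrays left out are given as measured. On C3806c IL6 read 9.56, CCL2 9.50 and TNFRSF11B 10.65, while the other ESC arrays were at or below 4.92 for all 3 genes. On M106p1f TNFRSF21 read 9.95, IL33 6.49 and IL15 4.05, while M106p1 had means of 5.21, 3.64 and 7.17. On TB31c CXCL8 read 10.10, IL6 12.41 and IL15 6.98, where TB31 had means of 5.81, 9.53 and 4.17.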
